A study of Mus musculus with 3 samples.

Results

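Corticospinal nuclei, defined here by transcripts of Tox, Nfib and Bcl11b, made up 3362 of 9027 barcodes that held 1000 genes or more and no more than 5% mitochondrial transcripts. A nucleus was a member when Tox reached 300 CPM (the gene's UMIs per 1000000 of the nucleus, a UMI being a unique molecular identifier that tags 1 captured transcript) and Nfib 400 CPM, and when Bcl11b had at least 1 UMI. A member also had under 250 CPM summed over the p53 target genes Mdm2, Psrc1, Sesn2, Gtse1 and Ccng1 and under 600 CPM of the heat shock gene Hspa8. The nuclei were sorted from brains of uninjured C57BL/6 mice after retrograde labelling from the lumbar spinal cord, which marks neurons whose axons reach that level, and were profiled by droplet-based single-nucleus RNA sequencing. There was 1 group of 3 libraries, labelled as biological replicates 1, 2 and 3. The labels give no injury, drug or genotype other than the strain, and the sources used here do not give age, sex, tracer or the number of animals per library. Members were compared with the other 5665 passing nuclei of the same libraries. The p-values thus measure only how the difference between the 2 sets varies over 3 libraries, and this spread may in part be technical.

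Corticospinal neurons are pyramidal cells of cortical layer 5 whose axons leave the cortex and run through the brainstem into the spinal cord, where they steer voluntary movement. Their identity is set during development by the zinc finger factor Fezf2, which acts upstream of Bcl11b (also called Ctip2), a factor needed for corticospinal axons to grow into the cord. Nfib belongs to the nuclear factor I family and acts in the developing forebrain, Tox is a high mobility group protein best known from T cell development, and Crym encodes a thyroid hormone-binding protein that labels subcortically projecting layer 5 cells.

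Outside the genes of the rule, those that led the contrast with the other nuclei included a group of 3 neighbouring long intergenic non-coding RNA genes, Gm6260, Gm42705 and Gm42707, and the ETS family factor gene Etv1, a marker of layer 5. Gm6260 spans chr3:143670892-143712210 on the minus strand, Gm42705 chr3:143743377-143827012 on the plus strand and Gm42707 chr3:143878393-143954774 on the minus strand of build GRCm38. The 3 genes lie within 284 kb, and 234 kb separate the end of Gm42707 from the body of Lmo4, a LIM-only factor gene. The promoter windows of Gm6260 and Etv1 are shown because Gm6260 had the largest rise over the other nuclei among the named genes and Etv1 the largest among the named protein-coding genes. Each holds 250 bases before and 50 bases after a RefSeq start on GRCm38.p6, written 5′ to 3′ on the gene's strand, and capitals mark TTGGC or GCCAA, the motif that nuclear factor I dimers bind in pairs, on either strand. The windows are chr3:143712094-143712393 on the minus strand for Gm6260, and chr12:38779832-38780131 and chr12:38783461-38783760 on the plus strand for the upstream and downstream start of Etv1.
Gm6260: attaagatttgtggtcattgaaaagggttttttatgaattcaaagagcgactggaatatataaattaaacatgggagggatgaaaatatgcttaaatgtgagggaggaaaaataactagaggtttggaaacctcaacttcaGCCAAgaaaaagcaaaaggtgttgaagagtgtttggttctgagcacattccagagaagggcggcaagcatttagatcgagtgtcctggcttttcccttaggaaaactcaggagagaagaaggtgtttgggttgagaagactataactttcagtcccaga
Etv1 upstream start: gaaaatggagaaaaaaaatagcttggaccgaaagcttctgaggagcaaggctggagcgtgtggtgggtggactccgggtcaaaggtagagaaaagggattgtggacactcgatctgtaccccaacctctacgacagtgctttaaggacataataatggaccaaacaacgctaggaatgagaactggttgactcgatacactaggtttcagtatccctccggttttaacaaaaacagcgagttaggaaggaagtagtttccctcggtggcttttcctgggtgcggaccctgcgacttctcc
Etv1 downstream start: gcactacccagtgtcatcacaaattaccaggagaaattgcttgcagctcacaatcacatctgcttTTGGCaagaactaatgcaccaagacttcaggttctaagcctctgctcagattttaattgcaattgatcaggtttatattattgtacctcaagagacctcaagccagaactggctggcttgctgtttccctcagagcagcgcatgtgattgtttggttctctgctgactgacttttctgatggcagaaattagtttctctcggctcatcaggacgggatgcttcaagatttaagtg
The window of Gm6260 and that of the downstream Etv1 start held 1 motif each, and the upstream Etv1 window held none of these letters. Among the 12 genes with the largest rise, 7 had an entry, and 8 of their 15 windows (53.3%) held a motif, against 46.7% of all 32851 windows of the same length. The paired form, TTGGC followed by any 5 bases and GCCAA, was in 0 of the 15 windows and in 0.0365% of all windows. A match is a description of the letters and was not tested as a binding site. The windows of Crym, Tox, Nfib, Boc, Gm42705 and Gm42707 were not used here.

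Replicates 1, 2 and 3 held 650, 1218 and 1494 members. The mean share of passing nuclei was 36.7% ± 10.8 (SD, n = 3 libraries). Members made up 24.3% of replicate 1 (exact 95% binomial interval 22.6 to 25.9), 44.0% of replicate 2 (42.1 to 45.9) and 41.7% of replicate 3 (40.1 to 43.4), where intervals cover counting error only. Replicate 1 therefore lay below the intervals of both other libraries. Members were deeper than the other nuclei, with medians of 14841.5, 30450.5 and 21215.5 UMIs against 6875, 13268 and 10693 UMIs. At 5000 UMIs per nucleus, with shallower nuclei left out and the rule applied again, the shares were 18.3%, 25.1% and 25.1%. The share that met the rule thus moved with depth, and replicate 1 stayed lowest. At 5000 UMIs a Bcl11b UMI was left in 66.8%, 64.5% and 67.1% of the members, so the same limits are harder to meet there. No barcode was a member in more than 1 library, although pairs of libraries shared 3, 2 and 1 passing barcodes.

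**Figure D1:**
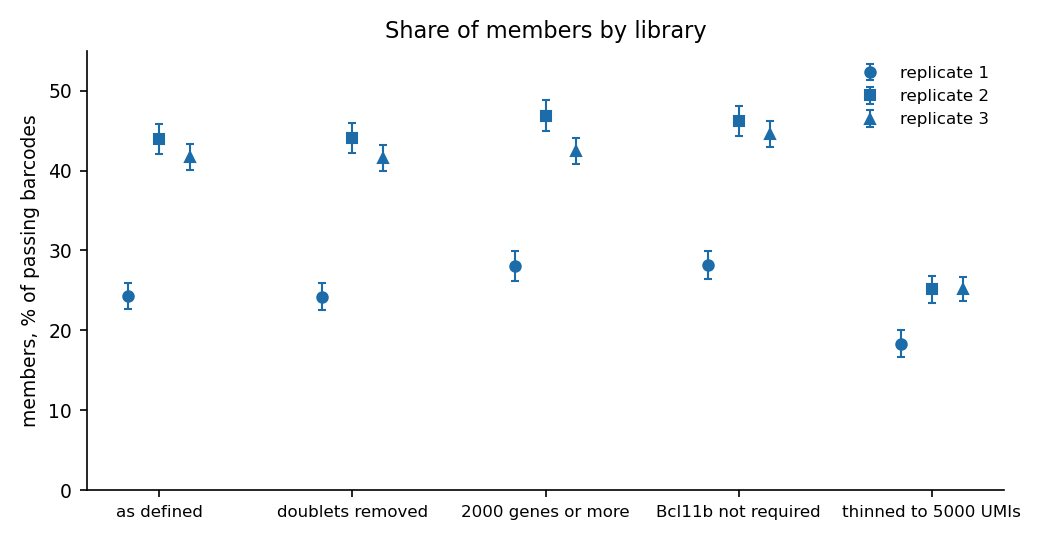
Members as a percentage of passing barcodes in each library (vertical axis), for the rule as defined and for 4 alternatives (horizontal axis); symbols are libraries and bars are exact 95% binomial intervals. Replicate 1 is lowest under every setting shown, and thinning to 5000 UMIs lowers all 3 libraries to between 18.3% and 25.1%.

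The genes of the rule are given as a description. Tox stood at 832, 719.5 and 858 CPM in members and at 150.1, 115 and 142 CPM in the other nuclei of replicates 1, 2 and 3. Nfib stood at 1061, 919 and 1000 CPM in members and at 249.7, 209 and 207 CPM in the other nuclei. Bcl11b stood at 218, 234 and 231 CPM in members and at 41.9, 61.5 and 39.5 CPM in the other nuclei. The other nuclei are not free of these genes, because 303, 236 and 306 of them reached the Tox limit and 416, 319 and 351 the Nfib limit. In 132, 79 and 126 other nuclei only the Bcl11b UMI was missing, in 132, 166 and 115 only Tox was too low, and in 43, 69 and 67 only Nfib. Nuclei within 20% of the Tox limit held 19.8, 22.5 and 30.1 CPM of Fezf2 just inside it (30, 63 and 49 nuclei), against 20.2, 24.8 and 36.2 CPM just outside (33, 52 and 39 nuclei). Their Crym stood at 26.4, 47.4 and 56.4 CPM inside and 46.4, 63.5 and 50.7 CPM outside. At the Nfib limit, with 10, 25 and 36 nuclei inside and 11, 12 and 18 outside, Crym stood at 24.0, 54.98 and 54.6 CPM inside and 58.8, 46.9 and 38.7 CPM outside. Slc17a6, a gene of brainstem neurons, stood there at 56.1, 4.23 and 13.3 CPM inside and 36.8, 46.9 and 12.9 CPM outside. Nuclei with 1 Bcl11b UMI held 25.6, 35.1 and 35.99 CPM of Fezf2, and nuclei that met all but the Bcl11b limit held 31.0, 32.4 and 34.2 CPM. Corticospinal markers were thus present on both sides of each limit, and levels near the Nfib limit varied between libraries.

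The rule did not use the markers Fezf2 and Crym. Members and gene lists were chosen with earlier results of these data known, so these markers are not an independent check of the label. Fezf2 stood at 25.2, 27.8 and 30.6 CPM in members, against 9.39, 11.6 and 11.0 CPM in the other nuclei (log2 fold change 1.92, SE 0.10, edgeR adjusted p = 9.86e-08). Crym stood at 40.5, 68.2 and 48.0 CPM in members, against 15.3, 21.7 and 15.7 CPM in the other nuclei (2.11, SE 0.08, adjusted p = 1.25e-08). The groups did not overlap for either gene. Against the nuclei farthest from the limits, with under 100 CPM of Tox and of Nfib, the gap was wider: these held 1.68, 5.48 and 2.99 CPM of Fezf2 and 3.49, 8.39 and 3.99 CPM of Crym. That set was chosen after the data were seen. Both markers were thus higher in members, in nuclei whose single-gene detection was sparse.

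At a common depth of 5000 UMIs, Fezf2 had a UMI in 13.4%, 14.6% and 15.5% of members, against 4.54%, 5.71% and 4.92% of the other nuclei. Crym had a UMI in 18.1%, 29.5% and 21.0% of members, against 6.26%, 9.59% and 6.36% of the others. Without thinning, the shares of members were 33.5%, 57.0% and 46.4% for Fezf2 and 42.6%, 77.9% and 59.5% for Crym, against 6.51%, 15.0% and 10.3% and 9.12%, 20.6% and 13.0% of the others. Transcripts that the cell type should lack gauge the background of such shares. Hcrt, the gene of the hypothalamic peptide orexin, which cortical neurons should lack, had a UMI in 15.6%, 34.6% and 10.5% of members and in 26.9%, 47.3% and 20.0% of the others at 5000 UMIs. Without thinning it had a UMI in 41.7%, 91.0% and 36.1% of members, and replicate 2 was the highest.

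**Figure D2:**
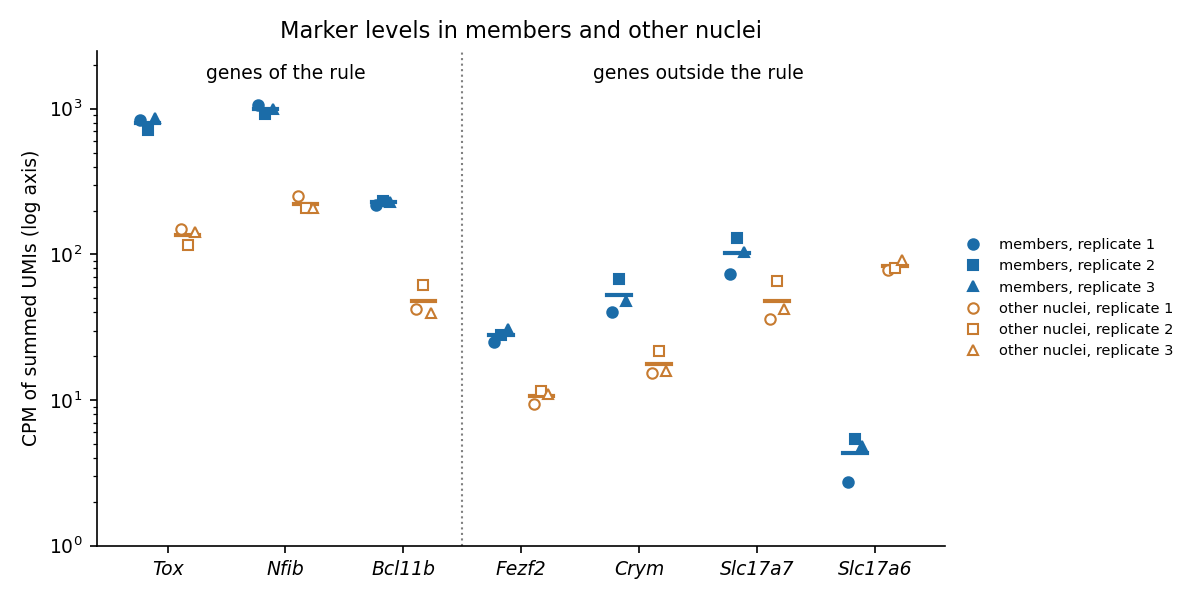
CPM of summed UMIs (log axis) in members (filled) and other nuclei (open) for each library, with the mean as a bar; the dotted line separates genes of the rule, shown as a description, from genes outside it. Fezf2, Crym and Slc17a7 are higher and Slc17a6 lower in members in all 3 libraries.

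The members had the transmitter profile of cortical excitatory neurons. Slc17a7, the vesicular glutamate transporter of cortex, stood at 73.1, 129 and 104 CPM in members, against 36.0, 66.0 and 42.4 CPM in the other nuclei (log2 fold change 1.64, SE 0.09). Slc17a6, the glutamate transporter of brainstem, thalamus and hypothalamus, stood at 2.73, 5.43 and 4.85 CPM in members, against 78.7, 80.5 and 91.1 CPM in the others. The groups did not overlap for either transporter. Of 18 forebrain excitatory genes 17 were higher in members, 0 were lower and 1 did not pass, with a list median of 1.80, against -0.12 over all genes. A gene was called when its adjusted p over all 20636 tested genes outside the rule was under 0.05 and its log2 fold change was 1 or more in size (edgeR quasi-likelihood test, library as a block), and 7.08% of tested genes were called higher and 19.8% lower.

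Among the forebrain genes, Camk2a, a synaptic kinase gene, stood at 639, 719.8 and 657 CPM in members, against 165, 209 and 170.1 CPM in the others (2.44, SE 0.07). Arpp21, which encodes a cAMP-regulated phosphoprotein, stood at 1862, 1823 and 1860.2 CPM in members, against 510.0, 533 and 498 CPM in the others (2.39, SE 0.06). The activity-regulated factor gene Mef2c (2.35) and the membrane protein gene Lamp5 (2.13) were also higher. The projection neuron factors Neurod2 (1.89), Neurod6 (2.01) and Emx1 (2.22) were higher too, whereas Neurod1 stood at 1.94 CPM in members and 2.58 CPM in the others and was not called. The number of higher forebrain genes was between 15 and 18 under every alternative run, including scaling by total UMIs.

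That scaling matters for smaller differences. The 500 genes with the most UMIs held 58.6%, 57.5% and 58.2% of the UMIs of members, against 49.8%, 48.2% and 48.1% of those of the others. The TMM factors, which balance the bulk of genes between sums, place log2 fold changes 0.54 above the log2 ratio of CPM. In all 1460 genes were higher and 4084 lower in members. Scaling by total UMIs alone, an alternative added after the data were seen, gave 541 higher and 7018 lower. Directions of genes whose CPM were alike in both groups therefore depend on the scale. List counts under that scaling are given beside the main ones. They stand against 541 higher and 7018 lower of all 20636 genes there, and 7.08% higher and 19.8% lower in the main fit.

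Layer 5 genes rose as a group. Of 22 tested corticospinal and layer 5 extratelencephalic genes 14 were higher in members and 1 was lower, with a median of 1.21. There were 8 higher and 2 lower under scaling by total UMIs, and 7 higher after thinning to 5000 UMIs. Etv1 stood at 118, 111 and 149 CPM in members, against 24.9, 25.9 and 30.05 CPM in the others (2.76, SE 0.09, adjusted p = 2.16e-09). Npr3, the clearance receptor of natriuretic peptides, stood at 72.9, 59.7 and 68.1 CPM in members, against 19.1, 17.4 and 16.8 CPM in the others (2.45, SE 0.09). Sox5, which orders the birth of deep-layer neurons, stood at 1190.4, 1085 and 1099.9 CPM in members, against 402, 302 and 330.1 CPM in the others (2.26, SE 0.06). No library of the others reached the lowest member library for these genes. Ldb2, a LIM-domain binding cofactor (2.11), Bcl6, a transcriptional repressor (1.38), and Crim1 (1.22) were also higher.

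Not all genes used for this cell class separated the sets. Pcp4, a calmodulin regulator, stood at 101, 134 and 119 CPM in members, against 109, 143 and 126 CPM in the others, and the groups overlapped. The contactin gene Cntn6 stood at 441, 372 and 474 CPM in members, against 467, 383 and 474 CPM in the others. The neurofilament gene Nefh stood at 10.4, 11.3 and 10.2 CPM in members, against 14.7, 16.2 and 12.8 CPM in the others. None of these 3 was called, and all had CPM below the others' in each library although their log2 fold changes were positive on the TMM scale (0.45, 0.50 and 0.09). Hpgd, a prostaglandin-degrading enzyme gene, was lower, at 0.12 CPM in members and 1.19 CPM in the others (-2.94).

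Among genes of other cortical layers more were lower than higher, as over all tested genes (19.8% lower and 7.08% higher). Of 19 upper layer and intratelencephalic genes 2 were higher and 8 lower (median -0.77), with 2 and 12 under scaling by total UMIs. Of 15 layer 6, near-projecting and subplate genes 2 were higher and 7 lower (median -0.93), with 1 and 10 under that scaling. Cux2, an upper layer homeobox factor, stood at 2.82, 3.804 and 2.58 CPM in members, against 65.4, 97.1 and 89.3 CPM in the others (-4.28, SE 0.12). Rasgrf2, a Ras exchange factor of upper layers, stood at 5.64, 8.75 and 8.12 CPM in members, against 98.6, 94.5 and 107 CPM in the others (-3.16). Tshz2, a marker of near-projecting cells, stood at 1.82, 5.18 and 4.20 CPM in members, against 184, 173 and 168 CPM in the others (-4.87). These genes are also used by neurons outside cortex, and where the others' transcripts came from was not tested. The higher ones included Dkk3 (1.78), Tbr1 (1.64) and Foxp2 (1.10).

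Foxp2, a forkhead factor of layer 6 and many brainstem groups, stood at 85.6, 66.2 and 98.9 CPM in members, against 76.8, 43.8 and 53.1 CPM in the others. The groups overlapped, and its log2 fold change fell below the threshold of size under scaling by total UMIs (0.56), after thinning (0.50) and without replicate 3 (0.89). Hs3st4, a heparan sulfotransferase of layer 6, was lower at 82.7, 92.1 and 81.2 CPM in members, against 344, 403 and 373 CPM in the others (-1.59). Lypd1 stood at 17.4, 19.7 and 15.6 CPM in members, against 52.1, 14.9 and 13.6 CPM in the others, was not called, and had no stable direction. Replicate 1 of the others stood apart from the other 2 libraries.

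**Figure D3:**
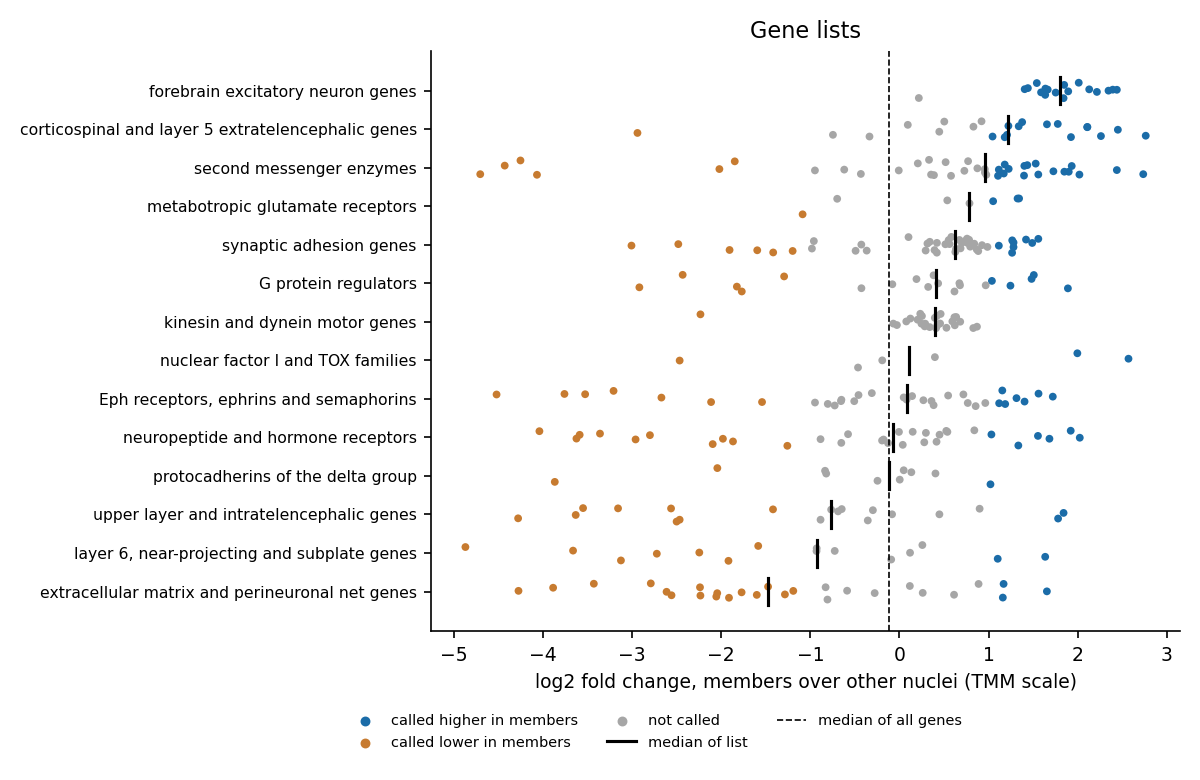
Log2 fold changes of the genes in 14 lists (horizontal axis, members over other nuclei on the TMM scale), 1 point per gene, with called genes in colour, the list median as a short bar and the median of all genes as a dashed line at -0.12. The forebrain and layer 5 lists lie to the right, and the matrix, layer 6 and upper layer lists to the left.

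The relatives of the rule's own factors split. The nuclear factor I genes Nfix and Nfia were higher in members. Nfix stood at 94.4, 113 and 94.0 CPM in members, against 23.7, 28.5 and 21.9 CPM in the others (2.57, SE 0.08), and Nfia at 497, 441 and 502 CPM in members, against 197, 155 and 176 CPM in the others (2.00, SE 0.06). Nfic stood at 22.7, 27.5 and 21.1 CPM in members, against 48.2, 45.6 and 49.5 CPM in the others. It was not called (-0.47), but reached the threshold under scaling by total UMIs (-1.01). Tox3 was lower, at 3.82, 1.99 and 2.27 CPM in members, against 24.1, 18.5 and 18.8 CPM in the others (-2.47), while Tox2 and Tox4 were not called. Thus 2 of 6 family members were higher and 1 was lower, with 2 and 2 under that scaling, and no library overlapped for Nfix, Nfia, Nfic or Tox3.

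The chromosome 3 non-coding genes shared the member pattern. Gm6260 stood at 76.4, 68.4 and 77.2 CPM in members, against 16.5, 13.0 and 11.5 CPM in the others (2.996, SE 0.11, adjusted p = 5.92e-09). Gm42707 stood at 48.7, 40.8 and 50.7 CPM in members, against 9.94, 8.28 and 7.95 CPM in the others (2.97, SE 0.11). Gm42705 stood at 27.0, 42.8 and 59.6 CPM in members, against 7.56, 11.4 and 9.74 CPM in the others (2.69, SE 0.15). In all 3 genes every member library lay above every library of the others. The neighbour Lmo4 stood at 26.6, 34.2 and 32.9 CPM in members, against 29.5, 36.0 and 34.5 CPM in the others, and was not called. The sources used here do not say whether counting used strand, and small non-coding genes lie inside Gm42705 and Gm42707, so reads of overlapping genes cannot be told apart.

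The leading protein-coding genes included L3mbtl4, which encodes a chromatin reader of the MBT family, at 272, 225 and 242 CPM in members, against 66.3, 46.8 and 51.6 CPM in the others (2.72, SE 0.07). Boc, a co-receptor for Sonic hedgehog, stood at 74.2, 82.9 and 84.9 CPM in members, against 16.8, 22.9 and 17.2 CPM in the others (2.64, SE 0.11). Gcnt4, a glycosyltransferase gene, was also higher (2.58), as were the non-coding or predicted genes Gm50024 (2.64), Gm10115 (2.62) and Gm19410 (2.62). The widest gaps were in the other direction. Rmst, a long non-coding RNA gene, stood at 4.46, 11.5 and 8.99 CPM in members, against 529, 442 and 521 CPM in the others (-5.26, SE 0.19). Dcc, the netrin receptor gene, stood at 20.3, 43.4 and 32.8 CPM in members, against 1879, 1526 and 1908 CPM in the others (-5.23, SE 0.19). Egfem1 stood at 4.82, 8.30 and 6.02 CPM in members, against 319.8, 318 and 337 CPM in the others (-5.09). The predicted or non-coding genes Gm45321 (-5.72), Tmem132cos (-5.72), 4930555F03Rik (-5.35), Gm2516 (-5.21), Gm33680 (-5.21), Gm12236 (-5.17), Gm32647 (-5.15) and A530058N18Rik (-5.07) and the synphilin gene Sncaip (-5.19) were lower as well. For all 12 of these genes replicate 2, where the Hcrt share was highest, also had the highest member level, and the part of free RNA in it was not tested.

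On the TMM scale, intracellular signalling enzymes were higher more often than lower. Over all tested genes 7.08% were higher and 19.8% lower, and after thinning 497 of 16031 were higher. Of 39 second messenger enzyme genes 17 were higher in members and 6 lower (median 0.96), with 8 and 8 under scaling by total UMIs and 8 higher after thinning. Pde1a, a phosphodiesterase driven by calcium and calmodulin, stood at 1998, 1817 and 2139 CPM in members, against 436, 435 and 431 CPM in the others (2.74, SE 0.07). Plcb1, a phospholipase coupled to Gq receptors, stood at 2639.8, 2215 and 2453 CPM in members, against 970.3, 807 and 854 CPM in the others (2.02, SE 0.06). The protein kinase C genes Prkce (1.90) and Prkcb (1.85) and the calcium-stimulated cyclase Adcy1 (1.73) were also higher.

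Isoforms of single enzyme families went opposite ways. Camk2a and Camk2b (1.11) were higher, whereas Camk2d stood at 5.27, 5.96 and 5.76 CPM in members, against 209, 199.7 and 241 CPM in the others (-4.70, SE 0.09). Pde1a was higher, whereas Pde1c (-1.85), Pde3a (-4.43) and Pde11a (-4.07) were lower. Prkg1, the cGMP-dependent kinase gene, stood at 15.7, 21.2 and 15.9 CPM in members, against 530.0, 472 and 482 CPM in the others (-4.25, SE 0.10). Groups did not overlap for Camk2d or Prkg1.

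Of 20 G protein regulator genes 5 were higher and 5 lower, with 1 and 5 under scaling by total UMIs and 2 and 5 after thinning. The lower count was near the share over all tested genes (19.8%). Scaling by total UMIs gave 7018 lower of all 20636. Gng7, a G protein gamma subunit, stood at 54.6, 62.8 and 54.0 CPM in members, against 21.0, 24.2 and 22.1 CPM in the others (1.89, SE 0.08). Rgs7bp (1.51) and Grk3 (1.48) were also higher but fell just short of the threshold of size under scaling by total UMIs (0.96 and 0.94). Gnal, the G protein alpha subunit of olfactory and striatal signalling, stood at 13.2, 13.2 and 10.9 CPM in members, against 92.0, 101 and 95.3 CPM in the others (-2.43).

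Among 7 metabotropic glutamate receptor genes 3 were higher and 1 lower, but 0 were higher and 2 lower under scaling by total UMIs, and 0 passed in either direction after thinning. Grm5 stood at 1848, 1708 and 1924 CPM in members, against 1078, 1001 and 1112 CPM in the others (1.33). Grm8 stood at 933, 836 and 926 CPM in members, against 621, 430.2 and 516 CPM in the others (1.34), and Grm7 at 1972, 1684 and 1841 CPM in members, against 1382, 1142 and 1353 CPM in the others (1.05). Member libraries were higher for all 3 without overlap, so it was the threshold of size and not the direction that the scale changed. Grm2 was lower at 0.34 CPM in members and 1.11 CPM in the others (-1.09). That call, on a gene of low level, was lost with the DESeq2 test and when any 1 library was left out.

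Of 32 neuropeptide and hormone receptor genes 6 were higher and 10 lower, with 4 and 13 under scaling by total UMIs and 3 and 5 after thinning. Thrb, a thyroid hormone receptor gene, stood at 869, 748 and 808 CPM in members, against 343, 303 and 289 CPM in the others (1.92, SE 0.07). The cholecystokinin receptor gene Cckbr (2.02), Vipr1 (1.55) and both corticosteroid receptor genes, Nr3c1 (1.33) and Nr3c2 (1.03), were also higher. Under scaling by total UMIs Nr3c1 fell below the threshold of size (0.79). Tacr1, the substance P receptor gene, stood at 0.18, 0.46 and 0.31 CPM in members, against 8.72, 7.71 and 9.38 CPM in the others (-4.04). The kappa opioid receptor gene Oprk1 (-3.63) and the PACAP receptor gene Adcyap1r1 (-3.59) were lower too. The receptor genes Igf1r and Insr were not called, with Igf1r at 201, 191 and 181 CPM in members and 214, 176 and 187 CPM in the others.

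Of 33 Eph receptor, ephrin and semaphorin genes 7 were higher and 7 lower, with 2 higher and 14 lower under scaling by total UMIs and 3 higher after thinning. The 7 lower genes were near the share of all tested genes that were lower (19.8%). Epha4, a receptor that keeps corticospinal axons from recrossing the cord midline in mice, stood at 142, 133 and 131 CPM in members, against 60.8, 58.6 and 59.9 CPM in the others (1.72, SE 0.07). Its relative Epha7 (1.19) and the ephrin genes Efnb2 (1.56) and Efna5 (1.31) were higher too. All 7 genes that fell were semaphorins, a grouping seen after the calls and not tested. The semaphorins Sema7a (1.40) and Sema3e (1.15) rose. Sema5a stood at 3.91, 4.84 and 4.14 CPM in members, against 163, 126 and 159.8 CPM in the others (-4.52, SE 0.12). Sema5b (-3.76), Sema3a (-2.67) and Sema6a (-2.11) were lower as well.

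Of 45 synaptic adhesion genes 8 were higher and 6 lower, with 1 and 9 under scaling by total UMIs and 2 higher after thinning. The lower count did not exceed the share over all tested genes (19.8%, or 7018 of 20636 under scaling by total UMIs). Nrxn3, a presynaptic neurexin gene, stood at 7115, 6166 and 6719 CPM in members, against 3619, 2859 and 3466 CPM in the others (1.56, SE 0.05). Flrt2 (1.49) was also higher, but fell short of the threshold of size under scaling by total UMIs (0.95) and after thinning (0.96). Cntnap4, a contactin-associated protein gene, stood at 38.9, 36.8 and 40.2 CPM in members, against 225, 193 and 217 CPM in the others (-1.91), and the teneurin gene Tenm1 was lower too (-1.60). Of 10 delta protocadherin genes 1 was higher and 2 lower, with 0 and 4 under scaling by total UMIs, and the lower ones were near the share over all genes (19.8%). Pcdh15 stood at 27.9, 26.8 and 33.8 CPM in members, against 683, 555 and 659 CPM in the others (-3.87), Pcdh11x was lower (-2.04), and Pcdh7 was higher (1.02) but lost its call under 5 alternatives. Pcdh10 stood at 14.2 CPM in members and 37.0 CPM in the others and was not called (-0.84).

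Matrix genes were mostly lower. Of 27 tested extracellular matrix and perineuronal net genes 3 were higher and 16 lower (median -1.47), with 1 and 19 under scaling by total UMIs, and the count of lower genes lay between 15 and 19 under all alternatives run. Reln, which encodes the secreted protein reelin, stood at 13.5, 11.5 and 10.1 CPM in members, against 213, 148 and 194 CPM in the others (-3.43, SE 0.10). The procollagen protease gene Adamts3 (-4.28) and the collagen genes Col19a1 (-3.89) and Col11a1 (-2.79) were lower as well. The net components Acan, at 0.24 CPM in members and 1.37 CPM in the others, Hapln1 (-2.61) and Bcan (-2.05) also fell. Tnr (1.16), Ncan (1.17) and the sulfotransferase gene Hs3st2 (1.65) rose. Tnr stood at 689, 614 and 576 CPM in members, against 426, 424 and 376 CPM in the others.

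Motor proteins of axonal transport barely separated the sets. Of 26 kinesin and dynein genes 0 were higher and 1 was lower (median 0.40), with the same counts under scaling by total UMIs, and 23 of the other 25 had positive log2 fold changes, a sign that scaling by total UMIs turns for many of them (median -0.14 there). Kif1b, a vesicle motor gene, stood at 629, 477 and 517 CPM in members, against 471, 377 and 444 CPM in the others (0.87, not called). Bicd1 (0.83) and Kif5c (0.68) were not called either. Kif26b, a kinesin-like gene with a role in cell polarity, stood at 31.7, 32.3 and 26.1 CPM in members, against 204, 202 and 207 CPM in the others (-2.23).

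Defining genes of other brain cell types were mostly lower in members than in the others, but not all were near 0. The 8 hindbrain markers, among them Slc17a6 and 4 Hox genes, summed to 4.09, 9.10 and 7.24 CPM in members, against 131, 144 and 158 CPM in the others, and all 7 tested were lower. The 4 red nucleus markers summed to 2.73, 1.90 and 2.53 CPM in members, against 18.4, 16.4 and 16.3 CPM in the others, and all were lower. The 5 inhibitory markers summed to 2.27, 5.00 and 2.13 CPM in members, against 41.8, 44.8 and 54.2 CPM in the others. Hypothalamic markers summed to 39.7, 81.3 and 35.2 CPM in members, against 172, 195 and 109 CPM in the others, and Hcrt made up 32.3, 76.2 and 22.6 CPM of the member sums, above Fezf2 in replicates 1 and 2 and below it in replicate 3. Of the other lists, 5 of 6 tested monoaminergic and 3 of 5 tested cortical interneuron markers were lower and 0 higher.

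Glial and vascular markers varied. Mbp, a myelin gene, stood at 65.2, 49.6 and 64.5 CPM in members, against 23.5, 31.6 and 27.3 CPM in the others, whereas Mog, Mag and Mobp were at or below 1.00 CPM in every member library. Slc1a2, the glutamate transporter gene of astrocytes that neurons also transcribe, stood at 141, 127 and 132 CPM in members, against 41.6, 39.1 and 43.6 CPM in the others, whereas Aqp4, Gja1 and Gfap were at or below 0.36 CPM in members. Both were called higher (Mbp 1.65, Slc1a2 2.23). Microglial markers summed to 15.5, 30.1 and 34.0 CPM in members, against 52.1, 64.8 and 83.1 CPM in the others. Most of that was P2ry12, at 10.4, 21.2 and 25.1 CPM in members, whereas C1qa, C1qb and Tmem119 were at or below 0.18 CPM. Vascular markers summed to 7.27, 5.43 and 5.16 CPM in members, against 26.1, 12.4 and 20.2 CPM in the others. The part of these transcripts in the results was not tested.

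Variation within the members was described at 8000 UMIs per nucleus, which kept 558, 1180 and 1465 members. Of 9141 genes with a mean of at least 0.05 UMIs in each library, 123 had a variance of at least 2 times the mean in every library, and the median gene had a lowest ratio of 1.03, close to what counting alone gives. The widest spread was in Malat1, a nuclear non-coding RNA, followed by Tnfrsf8, Gm34544 and Lsamp. Lamb3, Gm37267, Dpp10, Kcnip4, Ube2cbp, Lrp1b, Lrrtm4 and Nrg1 completed the 12 most variable genes. They vary in unlike ways. Tnfrsf8, a receptor of the tumour necrosis factor family, had 0 UMIs in 99.1%, 98.8% and 99.0% of members and was carried by few nuclei, with 54 of 3362 holding a UMI before thinning. Dpp10, a potassium channel accessory protein gene, was found in every member, at means of 102, 87.4 and 97.3 UMIs.

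Lsamp, which encodes a cell adhesion protein first known from the limbic system, had 0 UMIs in 46.8%, 38.9% and 42.9% of members. It had 5 UMIs or more in 118, 192 and 308 members, or 21.1%, 16.3% and 21.0%, and up to 98, 49 and 64 UMIs in 1 nucleus. Lsamp is at far higher levels among the other nuclei, at 6710.4, 5525 and 6865 CPM, against 486, 447 and 601 CPM in members, which is given beside its spread. Of the corticospinal markers, Fezf2 stood at 26.5, 26.7 and 35.3 CPM in members with 5 Lsamp UMIs or more and 29.7, 29.96 and 29.1 CPM in members with none. Crym stood at 31.8, 63.2 and 56.8 CPM in the former and 38.8, 78.7 and 49.0 CPM in the latter. Nfib (1001, 824 and 981 against 1105, 943 and 1003 CPM) and Slc17a7 (76.3, 118 and 100 against 82.4, 152 and 119 CPM) were lower in the former in each library. Etv1 was slightly higher there in each library, and Tox and Bcl11b had no single direction. Slc17a6 was higher in the Lsamp-rich members of each library, at 7.42, 13.0 and 6.90 CPM, against 2.87, 2.18 and 3.78 CPM in the Lsamp-free members, and its part in the split was not tested. Beside Lsamp, 4 genes were at least 4 times as high in the Lsamp-rich members in every library and at 20 CPM or more, a selection made after the data were seen and not tested. These were Dcc, Kcnc2, Samd5 and Sash1, of which all 4 were lower in members than in the others. Dcc stood at 49.8, 105 and 79.5 CPM in Lsamp-rich and 10.5, 14.7 and 8.76 CPM in Lsamp-free members. Scrublet called 5, 25 and 27 members doublets, and whether mixed droplets had a part in this spread was not tested.

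Gm34544, a long intergenic non-coding RNA gene at chr10:71527281-71678840, had 0 UMIs in 61.3%, 56.6% and 64.7% of members and 5 UMIs or more in 19.9%, 19.7% and 15.8%. Unlike Lsamp it had no single direction over the libraries, at 406, 481 and 273 CPM in members, against 434.5, 295 and 219.6 CPM in the others (not called). Gm34544-rich nuclei made up 22.9%, 20.8% and 18.2% of Lsamp-rich and 18.0%, 19.8% and 15.4% of Lsamp-free members. Nrg1, a growth factor gene, had a single broad range, with 0 UMIs in 8.06%, 20.6% and 17.7% of members.

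**Figure D4:**
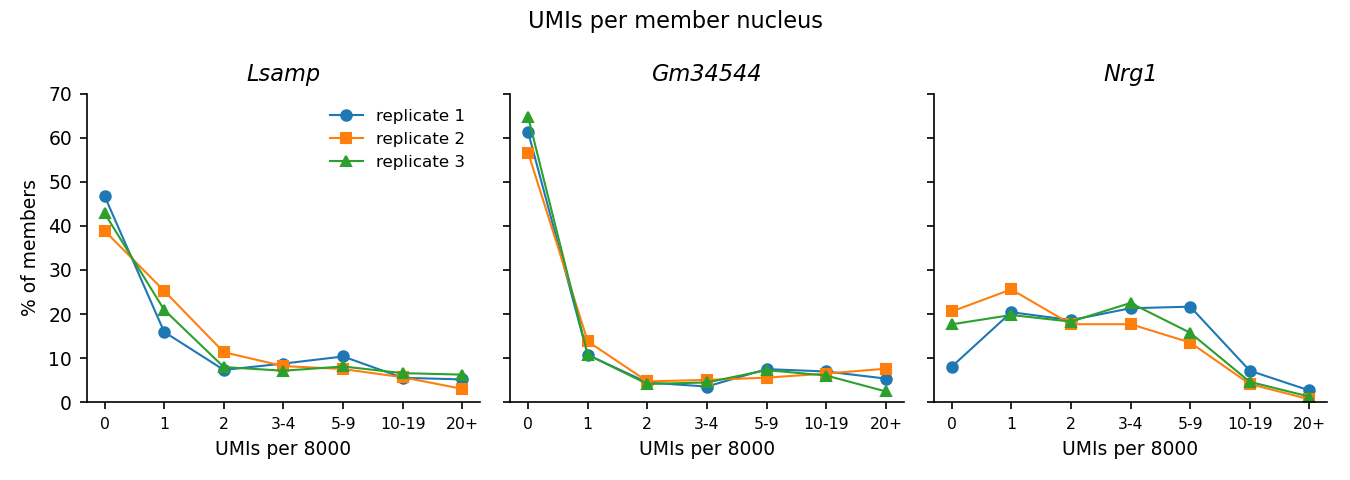
Percentage of members (vertical axis) by their number of UMIs of Lsamp, Gm34544 and Nrg1 out of 8000 (horizontal axis, classes of unequal width), with 1 line per library. Lsamp and Gm34544 are at 0 in 38.9% to 64.7% of members with a tail of 20 UMIs or more, whereas Nrg1 is at 0 in 8.06% to 20.6%.

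Members were also divided by detection of Crym. At 8000 UMIs Crym was found in 128 of 558, 486 of 1180 and 465 of 1465 members, or 22.9%, 41.2% and 31.7%. Most of those nuclei, 104, 353 and 361, had a single Crym UMI at that depth. In all their UMIs the members without a thinned Crym UMI still held 20.5, 47.6 and 27.3 CPM of Crym, against 102, 98.7 and 93.9 CPM in the members with one. The split thus follows sampling to a large degree, and likeness of its sides does not show that Crym-rich and Crym-poor neurons are alike. Fezf2 stood at 23.8, 29.8 and 31.6 CPM in members with Crym, against 24.5, 26.4 and 29.99 CPM in members without, and the log2 differences of Etv1, Slc17a7, Tox, Nfib and Bcl11b lay between -0.03 and 0.06. Of 16613 tested genes 4 were higher and 7 lower (edgeR, 0.0241% and 0.0421%), with 511 and 553 at an unadjusted p under 0.05. DESeq2 and the fit without the library block called 0. The counts were 16 and 16 without replicate 1, 0 and 2 without replicate 2, and 14 and 16 without replicate 3. The higher genes were Cped1 (1.34), Inhbc (2.04), Parp12 (1.84) and Slc22a20 (1.81), and the lower ones 4933406G16Rik (-3.97), A4gnt (-2.13), Acpp (-1.85), Fam163a (-2.16), Gm15962 (-2.43), Gm20465 (-3.21) and Pkp1 (-1.97).

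Single nuclei held a large part of the transcripts of some of these genes. Of 995 Acpp UMIs in members 666, or 66.9%, came from 1 nucleus. Acpp stood at 5.02, 3.803 and 1.10 CPM in members with Crym, against 87.5, 5.30 and 2.03 CPM in members without, and its call was lost without replicate 1 (-0.59, adjusted p = 0.401). Among all members 1 nucleus held between 15.6% and 71.0% of the UMIs of each of the 11 genes. Cped1 stood at 7.53, 17.4 and 14.02 CPM in members with Crym, against 6.59, 5.89 and 5.26 CPM in members without.

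Nuclei left out by the p53 limit alone passed the Tox, Nfib, Bcl11b and Hspa8 limits but held 250 CPM or more of the p53 targets. There were 34, 28 and 37 of them, at median depths of 9590, 11136.5 and 14883 UMIs, below those of members. p53 is a transcription factor that stress and DNA damage activate, and its targets include Mdm2, its own inhibitor. Corticospinal markers were present in both sets. Fezf2 stood at 25.2, 27.8 and 30.6 CPM in members, against 35.4, 33.3 and 33.7 CPM in these nuclei (log2 fold change 0.12, not called, and of the opposite sign in CPM), and Crym at 40.5, 68.2 and 48.0 CPM in members, against 40.4, 38.8 and 52.2 CPM in these nuclei (0.59, not called). The rule's Tox, Nfib and Bcl11b were higher in members in each library, with Tox at 832, 719.5 and 858 CPM in members, against 672, 572 and 625 CPM in these nuclei. Slc17a6 stood at 2.73, 5.43 and 4.85 CPM in members, against 15.2, 13.9 and 10.1 CPM in these nuclei, without overlap (-1.18, adjusted p = 0.112, not called). Mdm2, a gene of the rule, stood at 38.6, 32.6 and 34.1 CPM in members, against 275, 199.8 and 283 CPM in these nuclei.

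Of 15427 tested genes 305 were higher (1.98%) and 742 lower (4.81%) in members than in these nuclei (edgeR). The TMM factors of this comparison place log2 fold changes 0.39 above the log2 ratio of CPM. Scaling by total UMIs gave 35 and 1467, without replicate 3 there were 138 and 383, and without replicate 1 there were 359 lower. Further stress and p53 target genes were chosen after the values of the comparison were seen, and not all passed. Cdkn1a, a cell cycle inhibitor and p53 target, stood at 1.36, 0.85 and 1.05 CPM in members, against 12.6, 27.7 and 27.0 CPM in these nuclei (-4.01, SE 0.61, adjusted p = 2.36e-06). Atf3, an injury-induced factor, stood at 1.18, 0.46 and 0.57 CPM in members, against 22.7, 8.32 and 20.2 CPM in these nuclei (-4.17, SE 0.68). Jun (-2.03) and the p53 target Phlda3 (-2.23) were lower as well, and groups did not overlap for these 4 genes. The p53 target Zmat3 was not called, at 42.8, 43.3 and 44.1 CPM in members, against 63.1, 72.1 and 85.9 CPM in these nuclei (-0.37), and Eda2r had 1 UMI in the 99 nuclei. Sox11, a growth-linked factor, was not called either, at 2.71 CPM in members and 10.3 CPM in these nuclei.

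**Figure D5:**
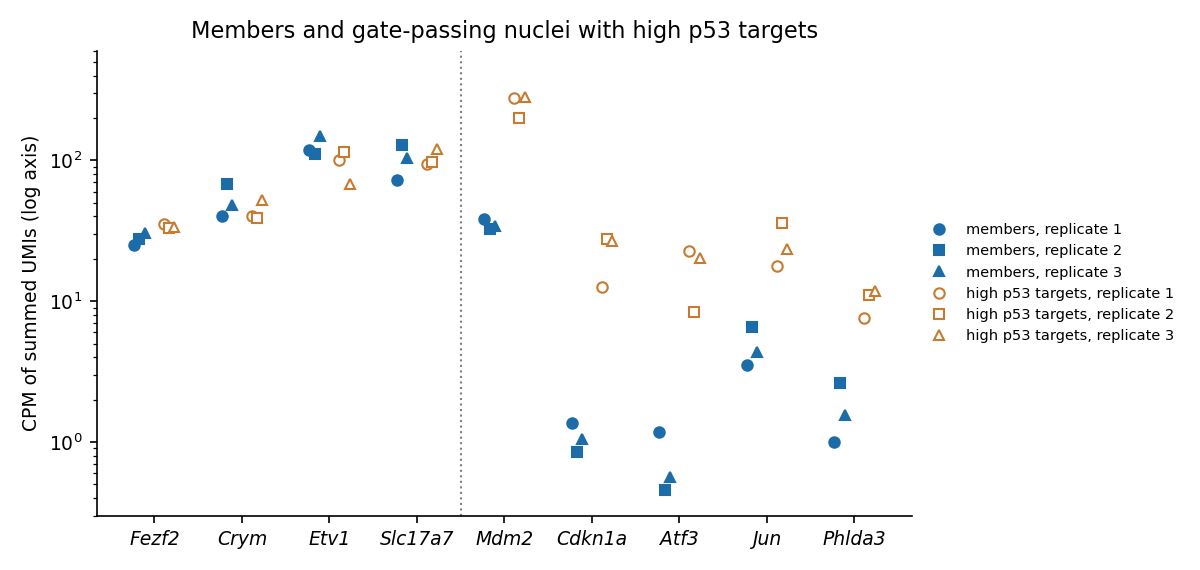
CPM of summed UMIs (log axis) in members (filled) and in nuclei that pass the other limits but hold 250 CPM or more of the p53 targets (open), for each library; Mdm2 is a gene of the rule. The cell type genes left of the dotted line overlap or lie close, and the stress genes right of it are lower in members in every library.

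The genes with the largest rise in members over these nuclei included Pcdh19 (1.97), Ugt8a (1.94), Gm42707 (1.93), Gm6260 (1.91), Mtss1 (1.78), Gm553 (1.74), Glp2r (1.64), Lhfp (1.61), Add3 (1.61), Arhgap18 (1.61) and Lonrf2 (1.60). Their counts in these 99 nuclei were low, such as 11 UMIs of Pcdh19 in 7 nuclei, 13 of Ugt8a, 13 of Glp2r and 41 of Lhfp. Against all other nuclei, Pcdh19 (23.9 against 62.7 CPM), Mtss1 (42.5 against 99.2 CPM), Arhgap18, Add3 and Lonrf2 had lower mean CPM in members. The rest of these genes had higher mean CPM in members. Gm6260 stood at 76.4, 68.4 and 77.2 CPM in members, against 53.04, 25.0 and 8.42 CPM in these nuclei. Glp2r lost its call without replicate 3 (1.07, adjusted p = 0.218). Of the list genes, Npr3 (1.19), Nfix (1.16), Pde1a (1.27), Thrb (1.03) and Dkk3 (1.32) were higher in members on the TMM scale. So were 8 of 42 synaptic adhesion genes, against 1.98% of all tested genes. Scaling by total UMIs gave 35 higher genes in all, against 305 here, and list counts were not taken under it. Nfic (-1.18), Camk2d (-2.06) and Prkg1 (-2.33) were lower. Among 20 tested layer 5 genes Npr3 was the only one called.

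The genes that fell most in members included Gm12865 (-5.89), Ndrg1 (-5.73), Skint7 (-5.16), D7Ertd443e (-5.02), Sytl5 (-4.84), Nox4 (-4.78), Anxa11os (-4.62), Dynlt1b (-4.49), Rgs12 (-4.43), Fer1l6 (-4.21) and Tshr (-4.16). Ndrg1, a stress-responsive gene, stood at 1.00, 0.30 and 0.51 CPM in members, against 40.4, 27.7 and 47.2 CPM in these nuclei, where 21 of 99 nuclei held its 54 UMIs. Nox4, a gene for an enzyme that makes hydrogen peroxide, stood at 1.09, 0.48 and 1.42 CPM in members, against 40.4, 8.32 and 74.1 CPM in these nuclei. Others came from few nuclei, since 1 nucleus held 95.3% of the Gm12865 UMIs and 82.8% of those of Dynlt1b in this class. Hs3st5, a heparan sulfotransferase gene from the matrix list, stood at 109.8, 76.1 and 94.9 CPM in members, against 699.7, 388 and 874 CPM in these nuclei (-2.37, SE 0.13).

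Only 5 nuclei passed every other limit with 600 CPM or more of Hspa8, in replicates 1 and 2, too few for a test. Together they held 25305 UMIs, with 1 UMI of Fezf2, 4 of Crym, 9 of Slc17a7 and 0 of Slc17a6. A further 3 nuclei of replicate 3 exceeded both the p53 and the Hspa8 limit, with 7676 UMIs in all and none of these 4 genes.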

How the data were processed

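Single-nucleus libraries of 1 group were analysed from the deposited tables of UMI counts per gene and barcode. The authors made these counts with Cell Ranger, named as 6.1.1 per the file headers and as 7.0.1 with build mm10 per the submitters' processing notes, and which version made them was not settled. The sources used here do not give intron counting, strand or the choice of barcodes. Here the counts were filtered (at least 1000 genes, at most 5% mitochondrial UMIs), and the rule was applied with Python 3.11.15, NumPy 2.4.6 and SciPy 1.17.1. Members and gene lists were chosen with earlier results of these data known. UMIs were summed per library and class. These sums were fitted in R 4.3.3 with edgeR 4.0.16 (filterByExpr, TMM, quasi-likelihood test, Benjamini-Hochberg adjustment over all tested genes), with the 9 genes of the rule kept out of the tests. A gene was called at an adjusted p under 0.05 and a log2 fold change of 1 or more in size. The library was a block, because members and other nuclei came from the same library. DESeq2 1.42.0 was an alternative. Doublets were called with Scrublet (Scanpy 1.11.5, expected rate 6%) and kept, except in 1 alternative. Nuclei were thinned to 5000 UMIs for shares and to 8000 UMIs for variation and for the Crym split. Total UMIs per library were 10997678, 43635727 and 35241806 in members and 16402668, 24761098 and 25161240 in the other nuclei. Named genes were the 12 largest called changes in each direction, at 20 CPM or more in the higher group. Their direction was the same in 3 of 3 libraries. From each list the 4 largest changes at 20 CPM or more were named, called or not, and so were the 12 most variable genes. Others are named as list members or as chosen after their values were seen. The procedures were tested on simulated data. Some of these genes are not reported here.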

Additional observations from a re-analysis of the deposited data

How the results depend on the processing

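In members against the other nuclei, 5544 genes were called in all. Of these, 2280 were also called after thinning to 5000 UMIs, 4228 without replicate 3, 4521 with the DESeq2 test and 5481 with doublets removed. The named genes were mostly picked for large changes, so their kept calls are no measure for all genes. Of the named genes' results under alternative settings, 972 of members against the other nuclei kept direction and call, 21 lost and 4 gained a call, and 4 turned direction. Those 4 were all of Lypd1, which was -0.10 without the library block, -0.29 under scaling by total UMIs and between -0.10 and 0.85 when 1 library was left out (negative without replicate 2 and without replicate 3). Scaling by total UMIs gave 541 genes higher and 7018 lower, and thinning to 5000 UMIs gave 497 and 2021; thinning also moves members that lose their Bcl11b UMI into the other nuclei. Leaving out 1 library gave 1312 to 1548 higher and 3159 to 4235 lower. Without the replicate block, which pairs members and others of 1 library, there were 1325 higher and 3491 lower.

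Against the nuclei with high p53 targets, 118 genes were higher by DESeq2, 152 without the block and 35 under scaling by total UMIs, where 1467 were lower. Leaving out 1 library gave 138 to 341 higher and 359 to 1028 lower. For the Crym split, DESeq2 and the fit without the block gave 0 genes in each direction, no filter on low counts gave 20 higher and 21 lower, detection at 5000 UMIs gave 2 higher, and leaving out 1 library gave 0 to 16 higher and 2 to 16 lower. The mean share of members was 22.9% after thinning and lay between 33.0% and 42.9% when 1 library was left out. The cause of these moves was not tested. Scaling by total UMIs, the far set of nuclei and leaving libraries out of the share were chosen after seeing the data. Alternatives for the Hspa8-rich nuclei were not run, since there were 5. Depth limits low genes, since Fezf2 was found in at most 15.5% of members at 5000 UMIs.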

Other observations

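Sex-linked transcripts were counted in members as a check of the libraries. Xist without a Y-linked transcript was found in 603, 1145 and 1379 members of replicates 1, 2 and 3, a Y-linked transcript without Xist in 0, 0 and 1, both in 6, 18 and 13, and neither in 41, 55 and 101.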
